A study of Mus musculus with 503 samples.

Results

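*Bcat1* and 9 genes of serine synthesis, one-carbon metabolism and the amino acid response were followed through single perivascular cells of the uninjured and the crushed mouse spinal cord. The 10 rows were taken by symbol from a count matrix of 56701 gene rows: *Bcat1*, *Phgdh*, *Psat1*, *Psph*, *Shmt1*, *Shmt2*, *Mthfd2*, *Aldh1l2*, *Asns* and *Atf4*. *Bcat1* was chosen by its rise after injury in these same cells, so its injury difference is given as a description. In the tdTomato+EGFP+ sort, *Bcat1* went from 0.651 to 390.4 CPM (counts scaled to a common total, counts per 1000000 of the summed cells). Of the other 9 genes, 8 were also called higher at 3 days. The rule, given below, called 10.8% of all tested genes higher. The difference of 1 of the 8, *Aldh1l2*, changed sign when CPM was averaged over cells. *Atf4* transcripts stayed between 170.0 and 213.7 CPM in the 4 groups.

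BCAT1 is the cytosolic aminotransferase that moves nitrogen from leucine, isoleucine and valine to alpha-ketoglutarate, which yields glutamate. PHGDH, PSAT1 and PSPH act in sequence to make serine from a glycolytic intermediate, and PSAT1 uses glutamate as its nitrogen donor. SHMT1 in the cytosol and SHMT2 in mitochondria split serine into glycine and a one-carbon unit, which MTHFD2 and ALDH1L2 handle in the mitochondrial folate cycle and which serves nucleotide synthesis. ASNS makes asparagine, and ATF4 is the transcription factor of the amino acid response, regulated largely at the level of its own translation.

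All cells came from the spinal cord of female mice of the genotype GLAST-CreERT2;R26R-tdTomato;Pdgfrb-eGFP, profiled with Smart-seq3 (a full-length single-cell RNA method). EGFP follows *Pdgfrb*, which is active in pericytes, vascular smooth muscle cells and fibroblasts, and tdTomato marks cells and their progeny in which a tamoxifen-dependent Cre under control of GLAST (*Slc1a3*, a glutamate transporter) had recombined the reporter. The tdTomato label therefore records a past recombination and not the current expression of GLAST. The 4 groups were tdTomato+EGFP+ uninjured, tdTomato+EGFP+ 3d_SCI, tdTomato-EGFP+ uninjured and tdTomato-EGFP+ 3d_SCI, where 3d_SCI is 3 days after a spinal cord crush, and 468 of 503 labelled cells were kept. The series description gives 5 days for the injured cells and the sample labels give 3 days, which were followed. No label names an animal, so each group was 1 sample, and no test, p-value or standard error was available.

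Uninjured cells lay on plates 209 and 213 and injured cells on plates 211 and 215, so injury and plate cannot be told apart, whereas both sorts shared every plate. The summed counts per group ran from 25645409 to 38406035. Plate 211 held 94.61% of the counts of the tdTomato+EGFP+ 3d_SCI group (88 cells, median 328802.5 counts), and its other 34 cells, on plate 215, had a median of only 14770 counts. Plate 211 also carried 197 symbols with over 500 counts that had none on the other plates and lacked others that were abundant there, whereas all 10 genes had counts on all 4 plates. Pericyte markers (9 genes) summed to 10910 CPM in tdTomato+EGFP+ uninjured cells and 731.7 CPM at 3 days, against 11980 and 11100 CPM in the tdTomato-EGFP+ sort. Perivascular fibroblast markers (8 genes) went from 4214 to 21870 CPM and from 2205 to 9659 CPM, and cycling markers (12 genes) from 166.4 to 2412 CPM and from 209.8 to 1525 CPM. Endothelial markers (7 genes) were not absent from the uninjured cells, at 3910 and 4317 CPM, and summed to 360.5 and 1550 CPM at 3 days. Fewer cells of a type and less RNA per cell cannot be told apart in such sums, and the part of these marker shifts in the results below was not tested.

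The promoter windows of the genes are shown first, because ATF4 is known to act through a short composite element. RefSeq windows of the GRCm38.p6 assembly, from 250 bases before to 50 after each start site, were found for 9 of the 10 genes (11 windows, 2 each for *Bcat1* and *Psat1*), and not for *Aldh1l2*. TGATGNAA, a core of ATF4-type elements, was searched on both strands and occurred in 1 of the 11 windows, that of *Asns*, against 3.97% of 32851 mouse windows. The E-box CACGTG, searched likewise, occurred in none of the 11 and in 7.15% of all windows. The 250 bases before the start site are printed for *Asns*, the gene with the match, at chr6:7693210-7693459 on the minus strand, and for *Bcat1*, the gene with the steepest change, at chr6:145076158-145076407 on the minus strand. Capitals mark TGATGNAA, whose first base in *Asns* lies at position -23 from the start site.
Asns: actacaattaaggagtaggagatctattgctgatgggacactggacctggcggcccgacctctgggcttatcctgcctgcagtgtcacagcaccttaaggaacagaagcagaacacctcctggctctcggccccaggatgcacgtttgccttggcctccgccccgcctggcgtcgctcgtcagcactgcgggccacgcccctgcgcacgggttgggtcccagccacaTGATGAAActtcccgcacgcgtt
Bcat1: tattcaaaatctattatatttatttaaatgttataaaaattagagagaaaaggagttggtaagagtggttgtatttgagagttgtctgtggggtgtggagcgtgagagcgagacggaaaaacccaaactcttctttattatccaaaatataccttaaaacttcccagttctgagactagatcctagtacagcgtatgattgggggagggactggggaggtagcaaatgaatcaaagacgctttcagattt
A match or its absence describes these letters in this window alone. Both genes lie on chromosome 6 (GRCm38, GENCODE M21), *Asns* at 7675169 to 7693254 and *Bcat1* at 144993835 to 145076184, both protein-coding and on the minus strand. On the same build, *Mthfd2* lies at chr6:83305691-83325908, *Phgdh* at chr3:98313170-98339990, *Psat1* at chr19:15904678-15947337, *Psph* at chr5:129765558-129787449 and *Shmt1* at chr11:60788104-60811718. *Shmt2* lies at chr10:127517123-127522444, *Aldh1l2* at chr10:83487450-83534140 and *Atf4* at chr15:80255184-80257541, the only one of the 10 on the plus strand.

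*Bcat1* was close to undetected before injury in both sorts. In tdTomato+EGFP+ uninjured cells it had 24 counts on plate 209 (1.49 CPM) and 1 count on plate 213, and after thinning every cell to 20000 counts, 0 cells had a count at that depth, which allows a share of up to 2.36% by a limit of 3 cells (exact binomial upper bound 2.86%). At 3 days the 2 plates gave 384.6 CPM (95% Poisson interval 377.6 to 391.8) and 492.5 CPM (459.5 to 527.2), and 87 of 100 thinned cells carried a count (exact binomial interval 78.8% to 92.9%). Both injured plates therefore lay far above both uninjured plates, and the signal was spread over the cells: the median cell stood at 359.9 CPM and 1 cell held only 3.92% of the counts. Thinning left out 22 injured and 10 uninjured cells of this sort for low depth, and without it the shares were 83.6% and 5.11%. All intervals and limits here cover counting error only.

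In the tdTomato-EGFP+ sort *Bcat1* was also higher at 3 days, at a lower level and in fewer cells. The injured plates gave 46.96 and 79.51 CPM and the uninjured plates 0.695 and 3.45 CPM. Of the 69 uninjured counts, 91.3% came from 1 cell, without which the group stood at 0.225 CPM. At 3 days 23 thinned cells had a count (22.5%, 14.9 to 31.9) and the median cell had none, so here a minority of cells carried the transcript, and 1 cell held 31.2% of it.

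**Figure D1:**
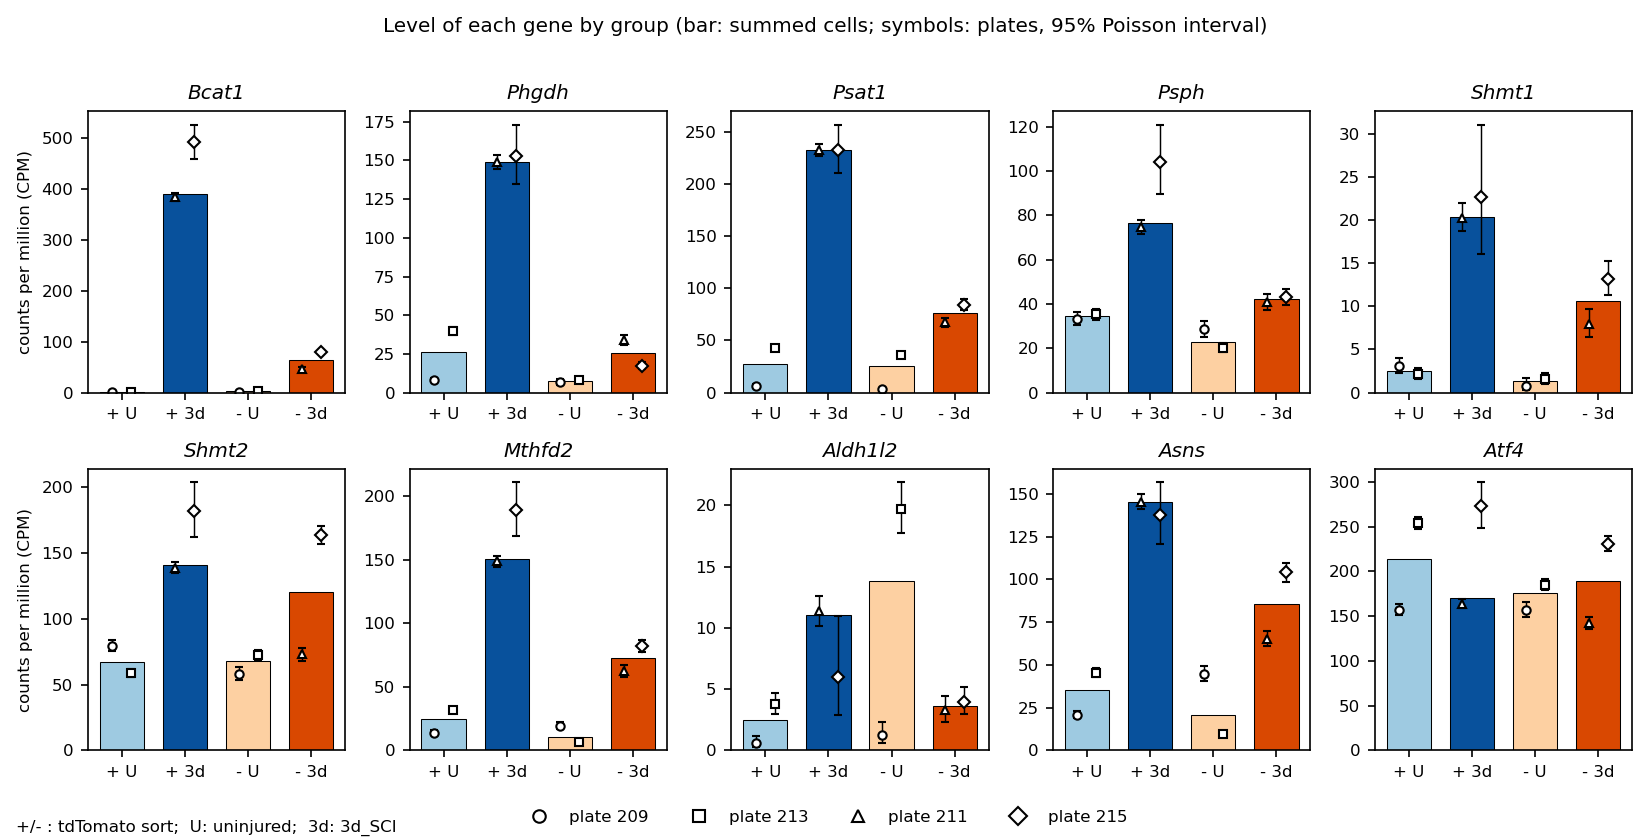
Level of each of the 10 genes in CPM (vertical axes, each starting at 0) in the 4 groups, with + and - for the tdTomato sort, U for uninjured and 3d for 3d_SCI; bars are the summed cells, symbols the plates with 95% Poisson intervals, which cover counting error only. *Bcat1* stood at 384.6 and 492.5 CPM on the 2 injured plates of the tdTomato+EGFP+ sort and under 4 CPM on every uninjured plate, while *Atf4* overlapped between all groups.

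The 3 enzymes of serine synthesis were higher at 3 days in tdTomato+EGFP+ cells. *Phgdh*, which catalyses the committed step, stood at 8.02 and 39.5 CPM on the uninjured plates and at 153.2 CPM on plate 215, with a 95% interval of 144.7 to 153.5 CPM on plate 211. *Psat1*, the aminotransferase of the pathway, went from 6.66 and 42.7 CPM to 233.1 CPM on each injured plate. *Psph*, the final phosphatase, went from 33.2 and 35.3 CPM to 74.8 and 104.3 CPM. For all 3 genes the lower injured plate exceeded the higher uninjured plate, although the uninjured plates themselves differed several-fold for *Phgdh* and *Psat1*. The share of all genes with plates apart in this way is not given here, so this describes the 3 genes only. The share of thinned cells with a count went from 15% to 68% for *Phgdh*, from 9.45% to 80% for *Psat1* and from 23.6% to 67% for *Psph*.

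In tdTomato-EGFP+ cells the same 3 enzymes showed smaller shifts. *Psat1* was at 3.24 and 35.8 CPM before injury and at 67.3 and 84.4 CPM after it, and 47.3% of its uninjured counts came from 1 cell. *Phgdh* moved from 6.60 and 7.78 CPM to 33.9 and 17.4 CPM, and *Psph* from 28.6 and 20.2 CPM to 40.9 and 43.1 CPM. The plates did not overlap between conditions for any of the 3 genes, again without the share of all genes to set beside it. At 3 days *Phgdh* in this sort (25.3 CPM) was close to its uninjured level in the other sort (26.3 CPM).

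Among the folate enzymes, *Mthfd2*, the mitochondrial dehydrogenase and cyclohydrolase, was higher at 3 days in both sorts. Its plates went from 14.1 and 31.9 CPM to 148.9 and 189.0 CPM in tdTomato+EGFP+ cells, and from 19.6 and 6.63 CPM to 62.5 and 81.97 CPM in tdTomato-EGFP+ cells. *Shmt1*, the cytosolic serine hydroxymethyltransferase, went from 3.05 and 2.11 CPM to 20.3 and 22.7 CPM, and in the other sort from 0.811 and 1.53 CPM to 7.95 and 13.2 CPM. *Shmt2*, its mitochondrial counterpart, was already present before injury and moved less, from 79.4 and 58.5 CPM to 138.6 and 181.8 CPM. In tdTomato-EGFP+ cells *Shmt2* on plate 211 (72.9 CPM) was close to plate 213 (72.2 CPM), and the higher level rested on plate 215 (163.2 CPM).

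*Aldh1l2*, the mitochondrial formyltetrahydrofolate dehydrogenase, rested on few cells and gave no stable direction. In tdTomato+EGFP+ cells it was at 0.622 and 3.76 CPM before and at 11.3 and 5.96 CPM after injury. Its injury difference turned negative (-0.87) when CPM was averaged over cells. The uninjured average, 14.87 CPM, included 1 cell at 1739 CPM, while the 90% quantile of those cells was 0. The sums without the cell with most counts were 0.866 CPM before and 8.88 CPM after injury. In tdTomato-EGFP+ uninjured cells 1 cell held 77.6% of its counts, and the group stood at 13.8 CPM with and 3.13 CPM without that cell, beside 3.63 CPM at 3 days. Its exons overlap *D10Wsu102e* on the other strand, a symbol with counts on plate 211 alone.

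*Asns*, asparagine synthetase, a known target of ATF4, went from 20.9 and 45.5 CPM to 145.5 and 137.7 CPM in tdTomato+EGFP+ cells and from 44.9 and 9.37 CPM to 65.3 and 104.1 CPM in tdTomato-EGFP+ cells. *Atf4* itself showed no such shift. In tdTomato+EGFP+ cells its plates read 157.1 and 254.4 CPM before and 164.1 and 273.1 CPM after injury, and in tdTomato-EGFP+ cells 156.9 and 185.1 CPM before and 142.5 and 231.0 CPM after. The plates interleaved, and 72.8% to 85% of thinned cells had an *Atf4* count in every group.

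**Figure D2:**
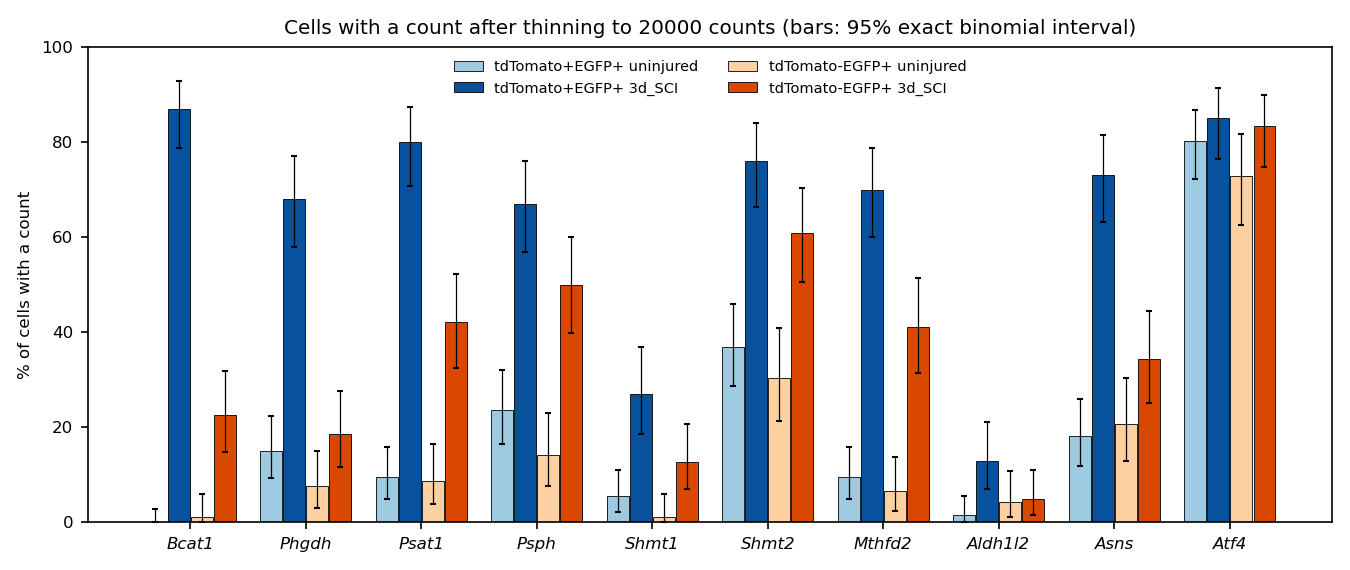
Percentage of cells with a count of each gene after every cell was thinned to 20000 counts (vertical axis), for the 4 groups, with 95% exact binomial intervals that cover counting error only. *Bcat1* went from 0% to 87% in tdTomato+EGFP+ cells and from 1.09% to 22.5% in tdTomato-EGFP+ cells, while *Atf4* lay between 72.8% and 85%.

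For the comparison across all genes, a gene was called where its difference of log2(CPM + 1) between the summed groups was at least 1 in size with the same sign in each of the 4 pairings of injured with uninjured plates, among genes at 10 CPM or more in the higher group. This scale understates the change of genes near 1 CPM. In tdTomato+EGFP+ cells 9 of the 10 genes were called higher and none lower, where 10.8% of 11428 genes were called higher and 34.3% lower. Their differences were 7.89 for *Bcat1* (plate pairs 7.27 to 8.88, rank 17 of 11428), 3.03 for *Psat1* (2.42 to 4.94), 2.61 for *Shmt1* (2.40 to 2.93), 2.58 for *Mthfd2* (2.19 to 3.66), 2.46 for *Phgdh* (1.89 to 4.10) and 2.01 for *Asns* (1.58 to 2.74). *Aldh1l2* (1.81, 0.55 to 2.93), *Psph* (1.13, 1.06 to 1.62) and *Shmt2* (1.06, 0.80 to 1.62) were nearer to the limit, and *Atf4* stood at -0.33 (-0.63 to 0.79). *Bcat1*, *Shmt1* and *Aldh1l2* passed the 10 CPM filter through the injured group alone, so the count of called members describes them and supports nothing further.

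The median of all genes tested was itself shifted, by -0.587 in this contrast. With TMM scaling, which sets that median to 0.067, the same 9 genes were called higher, against 20.8% of genes higher and 18.9% lower, and *Atf4* moved to 0.34, still not called. The sign of the small *Atf4* difference thus depended on the scaling.

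In tdTomato-EGFP+ cells 6 of the 10 genes were called higher and none lower, where 9.53% of 11433 genes were called higher and 17% lower (median of all genes -0.202). *Bcat1*, *Phgdh* and *Shmt1* passed the 10 CPM filter through the injured group alone and *Bcat1* was chosen for its rise, so this count too is a description. These were *Bcat1* (4.19, plate pairs 3.43 to 5.57), *Mthfd2* (2.65, 1.63 to 3.44), *Shmt1* (2.34, 1.82 to 2.97), *Asns* (1.99, 0.53 to 3.34), *Phgdh* (1.65, 1.07 to 2.20) and *Psat1* (1.55, 0.89 to 4.33). *Psph* (0.85) and *Shmt2* (0.82) lay just under the limit, and with TMM scaling both passed it, which made 8 of 10 against a background of 14.3%. *Atf4* was at 0.10, and *Aldh1l2* at -1.68 with plate pairs of both signs.

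**Figure D3:**
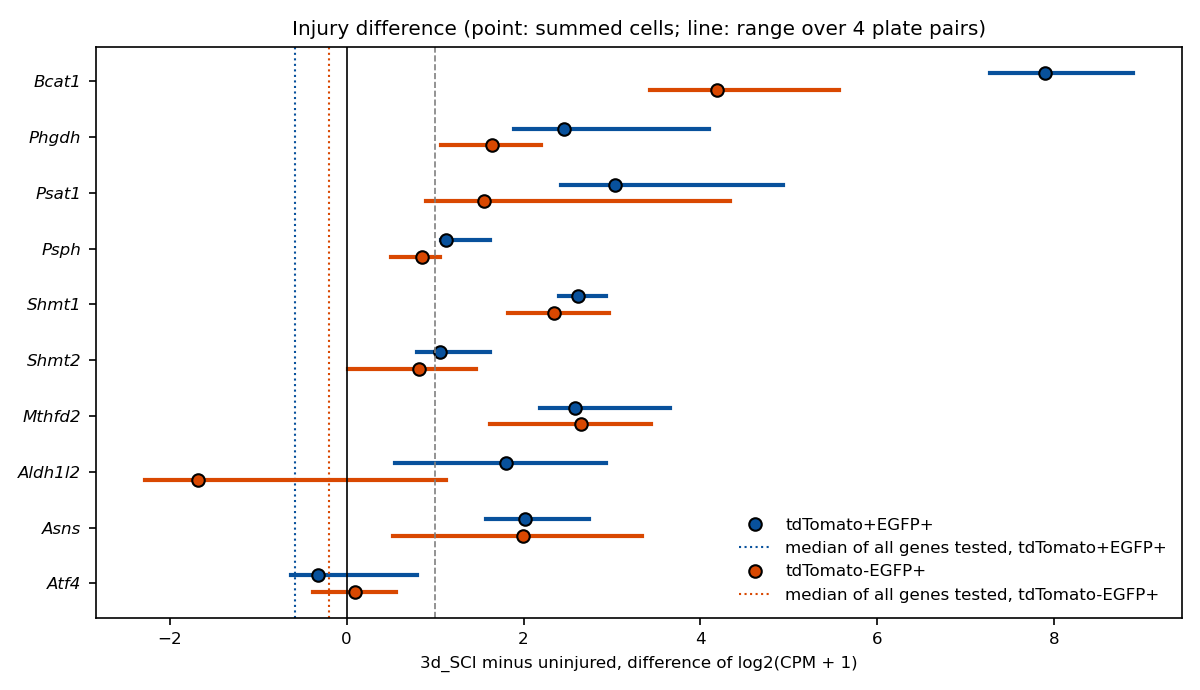
Difference of log2(CPM + 1), 3d_SCI minus uninjured (horizontal axis), for each gene in both sorts; points are the summed cells, lines the range over the 4 plate pairs, the dashed line the limit of 1 and the dotted lines the median of all genes tested (-0.587 and -0.202). Every gene except *Atf4* and, in tdTomato-EGFP+ cells, *Aldh1l2* had all 4 plate pairs above 0, a pattern whose share over all genes is not given here.

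The injury difference of *Bcat1* was larger in tdTomato+EGFP+ than in tdTomato-EGFP+ cells by 3.70 (plate pairs 2.06 to 5.10), a value without a test. *Psat1* (1.48, 0.60 to 1.53) and *Aldh1l2* (3.48, 0.98 to 3.65) also met the call rule for this difference, 3 of 10 genes against 4.57% of 12080. Without the cell with most counts, 1 of the 10 genes met it, where 540 of 11415 genes did. Since *Bcat1* was chosen for its rise, this count is a description. *Mthfd2* (-0.07) and *Asns* (0.02) had nearly equal injury differences in both sorts, with plate pairs on either side of 0.

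The sorts could be compared on shared plates. At 3 days *Bcat1* was higher in tdTomato+EGFP+ cells by 2.59 (2.62 and 3.01 within the 2 plates), *Phgdh* by 2.52 (2.10 and 3.07), *Psat1* by 1.60 (1.46 and 1.78), *Aldh1l2* by 1.38 (0.49 and 1.53) and *Mthfd2* by 1.04 (1.20 and 1.24). These 5 were called higher and none lower, against 4.31% of 10630 genes higher and 17.9% lower. *Aldh1l2* passed the 10 CPM filter through the tdTomato+EGFP+ group alone and *Bcat1* was chosen for its rise in these cells, so this count is a description. *Shmt1* (0.88), *Psph* (0.85), *Asns* (0.75) and *Shmt2* (0.23) were higher on both plates but short of the limit, and with TMM scaling 8 of the 10 genes were called, where 8.66% of genes were. *Atf4* was at -0.15 in the sums and at 0.20 and 0.24 within the plates.

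In uninjured cells few of the genes were called between the sorts. Only *Phgdh* was called higher in tdTomato+EGFP+ cells (1.70, 0.25 and 2.21 within the plates) and only *Aldh1l2* lower (-2.10), against 4.31% of 11198 genes higher and 3.61% lower, and the *Aldh1l2* value came from the single cell named above. The *Phgdh* difference was 0.48 with CPM averaged over cells, and at 2.47 without cells with astrocyte markers it no longer met the rule. Astrocyte markers (10 genes) summed to 148.2 and 451.2 CPM in the uninjured cells of the tdTomato+EGFP+ and tdTomato-EGFP+ sorts. Of the 10 genes, 8 reached 10 CPM in a group, and *Bcat1* and *Shmt1* did not. *Phgdh* and *Aldh1l2* reached it only in the sort where they were higher, so both calls are descriptions. Of the *Phgdh* counts of tdTomato+EGFP+ uninjured cells, 84.3% lay in cluster 2, the fibroblast-like cells described next, which gave 23% of that group's counts.

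Cells were clustered with the 10 genes and the pathway lists kept out of the variable genes, and levels are described by cluster number without a test. Cluster 0 was led by *Bcat1*, *Tfpi2* and *Hmmr*, had 12 of 12 cycling markers, 6 of 8 perivascular fibroblast markers and 0 of 9 pericyte markers, and stays unnamed. It also had 5 of 7 stromal fibroblast markers and 2 of 6 vascular smooth muscle markers, while clusters 2 and 3 each had 4 of 7 stromal fibroblast markers. Cluster 2 (71 cells) had 8 of 8 perivascular fibroblast markers with *Pi16* among its leading genes and is called perivascular fibroblast-like. Cluster 3 (47 cells), led by *Ednrb* and *Avpr1a*, had 6 of 9 pericyte markers and held 46 of the tdTomato-EGFP+ 3d_SCI cells.

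*Bcat1* at 3 days was highest in cluster 0 in both sorts. In the 100 tdTomato+EGFP+ cells there it stood at 448.0 CPM, with 88% of cells positive. These cells held 96.7% of that sort's *Bcat1* counts with 84.3% of its total counts, a small excess. In the 17 tdTomato-EGFP+ cells of that cluster it was at 276.9 CPM, and these cells held 79.8% of that sort's *Bcat1* counts with 18.4% of its total counts. Those 17 cells also held the pericyte marker *Kcnj8* at 676.0 CPM, against 22.95 CPM in the tdTomato+EGFP+ cells of the cluster. Without regression in the clustering, the matching cluster held 9 tdTomato-EGFP+ cells at 536.9 CPM of *Bcat1* (*Kcnj8* 2.13 CPM) and 96 tdTomato+EGFP+ cells at 454.1 CPM, so the order of the sorts within it depended on the clustering. In cluster 3 it was at 9.12 CPM (46 cells). The 20 uninjured cells of cluster 0 had no *Bcat1* count but median depths of only 2488.5 and 2206.0 counts, so a low level was not detectable there.

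The fibroblast-like cluster 2 held uninjured and injured cells of the same sort, and in the tdTomato+EGFP+ sort it separated *Bcat1* from the other genes. In tdTomato+EGFP+ cells *Bcat1* was at 0.113 CPM in 26 uninjured cells (1 count) and at 90.7 CPM in 18 injured cells, of which 77.8% were positive. On plate 211, whose 14 cells gave most of those counts, *Bcat1* was at 82.4 CPM beside 0.347 and 0 CPM on the uninjured plates. The other genes did not follow it: *Phgdh* (55.6 CPM), *Psat1* (51.5), *Psph* (32.1), *Shmt2* (32.1), *Mthfd2* (9.34) and *Asns* (28.97) each lay between their 2 uninjured plates. For *Asns* those were 0.693 and 99.5 CPM and for *Mthfd2* 2.77 and 78.4 CPM, so the uninjured spread in this cluster was wide. The cluster held 29.6% of the *Atf4* counts of uninjured tdTomato+EGFP+ cells, more than its 23% of all their counts. At 3 days it held 9.24% of the *Atf4* counts, less than its 14.3% of all counts. In the tdTomato-EGFP+ sort, the 8 uninjured cells of cluster 2 held 92.8% of that group's *Bcat1* counts, with 7.61% of all its counts. Most of these came from the 1 cell that held 91.3% of them. The 19 injured cells there stood at 45.55 CPM, with 57.9% positive.

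Within the injured tdTomato+EGFP+ cells of plate 211, levels were compared between cluster 0 (71 cells) and cluster 2 (14 cells). *Bcat1* was at 442.4 against 82.4 CPM, *Mthfd2* at 174.2 against 9.34 CPM and *Psat1* at 267.2 against 51.5 CPM. *Phgdh* was at 167.4 against 55.6 CPM. The gap was smaller for *Atf4*, which stood at 175.1 against 97.9 CPM.

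**Figure D4:**
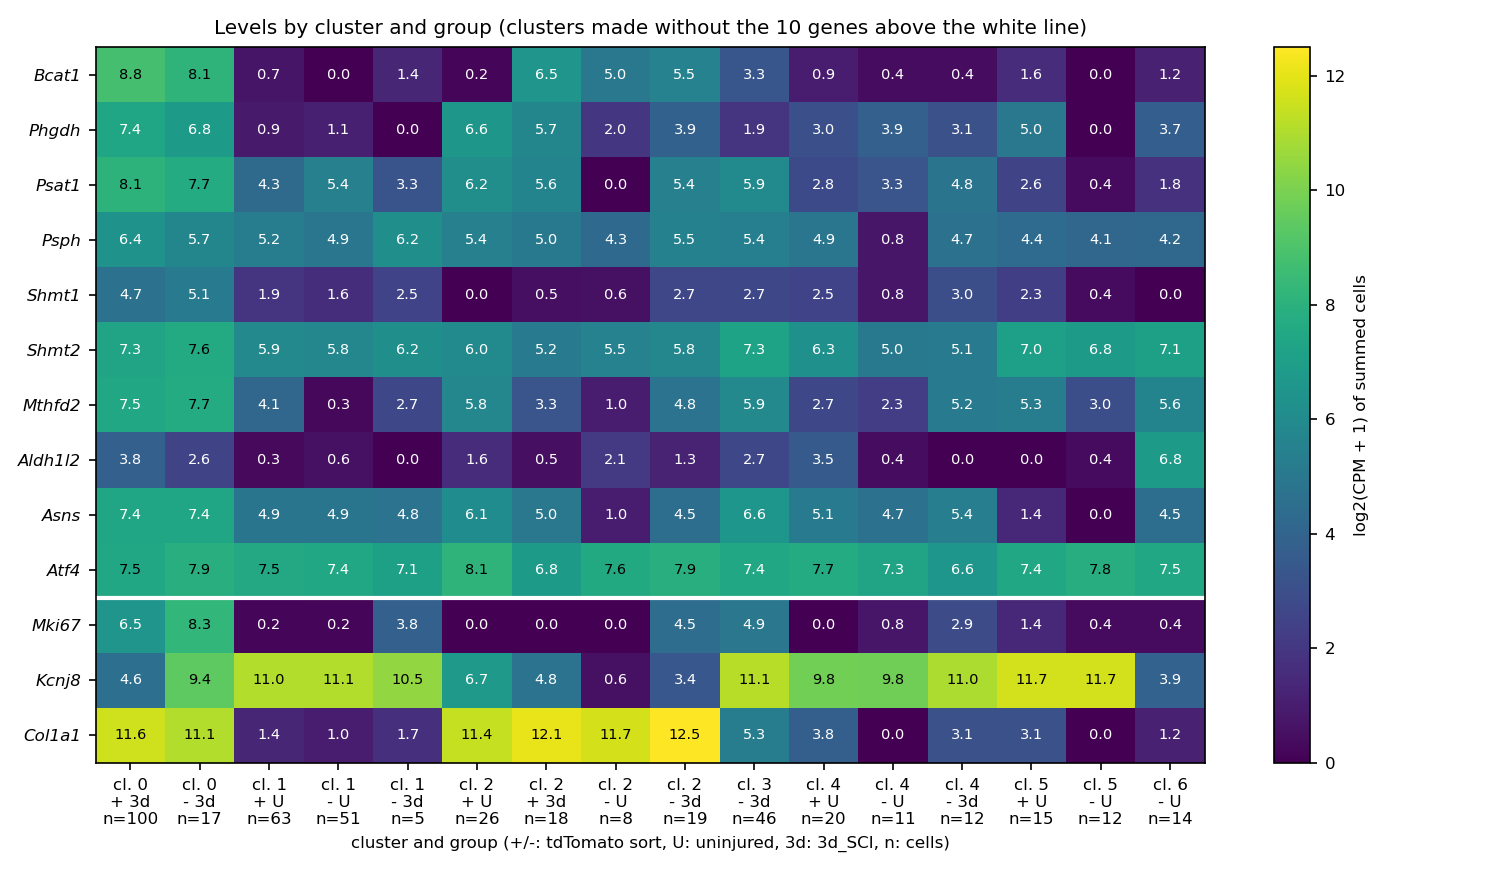
Levels by cluster and group as log2(CPM + 1) of the summed cells (colour and printed value; columns give cluster, tdTomato sort, U for uninjured or 3d for 3d_SCI, and n, the number of cells, for sets of 5 or more cells other than the low-depth uninjured cells of cluster 0); the 10 genes above the white line were kept out of the clustering and *Mki67*, *Kcnj8* and *Col1a1* mark cycling cells, pericytes and fibroblasts. *Bcat1* is highest in cluster 0 of both injured sorts and clearly present in injured cells of cluster 2, while *Atf4* is present in all columns and varies less than *Bcat1*.

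Injured cells were also split by a count of *Mki67* or *Top2a*, genes of dividing cells, after thinning. In tdTomato+EGFP+ cells *Bcat1* was at 446.0 CPM in the 65 cells with such a count and at 253.9 CPM in the 35 without, a difference of 0.81 (0.94 on plate 211 and 0.25 on plate 215). Of those 35 cells, 14.3% had *Mki67* counts before thinning. The split at full depth also took in cells that thinning had left out for low depth, so it compares other sets of cells. In its 35 cells with no such count *Bcat1* had 726 counts, in 60% of the cells, and the others stood at 439.9 CPM, a difference of 1.64. In the thinned split the differences were larger than that of *Bcat1* for *Shmt1* (1.96), *Phgdh* (1.52), *Mthfd2* (1.43), *Psat1* (1.24) and *Asns* (1.21) and smaller for *Shmt2* (0.79), *Psph* (0.58) and *Atf4* (0.18). In tdTomato-EGFP+ cells (34 with, 68 without) *Bcat1* differed by 0.27, *Shmt1* by 1.91, *Mthfd2* by 1.66 and *Psat1* by 1.18. The *Bcat1* values depended on how cycling cells were counted and on which cells were taken in. The differences were 1.64 and 2.95 in the 2 sorts when the split used all counts of a cell, with 14.1 CPM in the 57 tdTomato-EGFP+ cells without. The order changed with it: at full depth *Bcat1* exceeded *Phgdh* (1.47), *Mthfd2* (1.45) and *Asns* (1.21) in tdTomato+EGFP+ cells, and *Shmt1* (1.85), *Mthfd2* (1.97) and *Psat1* (1.67) in the other sort.

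The serine and one-carbon transcripts were also counted together in each cell. A higher share of each gene alone gives more genes per cell, and no expectation from those shares was set beside these counts. Of 7 genes (*Phgdh*, *Psat1*, *Psph*, *Shmt1*, *Shmt2*, *Mthfd2* and *Asns*), the median thinned cell had 1 in both uninjured groups, 5 in tdTomato+EGFP+ 3d_SCI cells and 2 in tdTomato-EGFP+ 3d_SCI cells. At least 4 were present in 3.15% of tdTomato+EGFP+ and 1.09% of tdTomato-EGFP+ uninjured cells, and in 71% and 31.4% of injured cells. Among the injured tdTomato+EGFP+ cells, the 87 with *Bcat1* had a median of 6 of the 7 genes and the 13 others a median of 3.

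Across the 88 tdTomato+EGFP+ 3d_SCI cells of plate 211, Spearman's rho of CPM between *Bcat1* and the members was 0.547 for *Mthfd2*, 0.527 for *Psat1*, 0.515 for *Psph*, 0.489 for *Phgdh*, 0.432 for *Asns*, 0.429 for *Shmt1*, 0.378 for *Shmt2*, 0.325 for *Aldh1l2* and 0.246 for *Atf4*. These cells share 1 plate, and *Bcat1* had a rho of 0.243 with their total counts. Within the 71 cells of cluster 0 the values were lower for the members other than *Atf4*, at 0.332 for *Mthfd2* and 0.280 for *Psat1*, while *Atf4* stood at 0.274. *Phgdh* and *Psat1* reached 0.702 with each other (0.656 within cluster 0), and *Shmt2* and *Mthfd2* 0.706 (0.633). Not every pair within a pathway exceeded its values with *Bcat1*: *Phgdh* and *Psph* stood at 0.510.

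**Figure D5:**
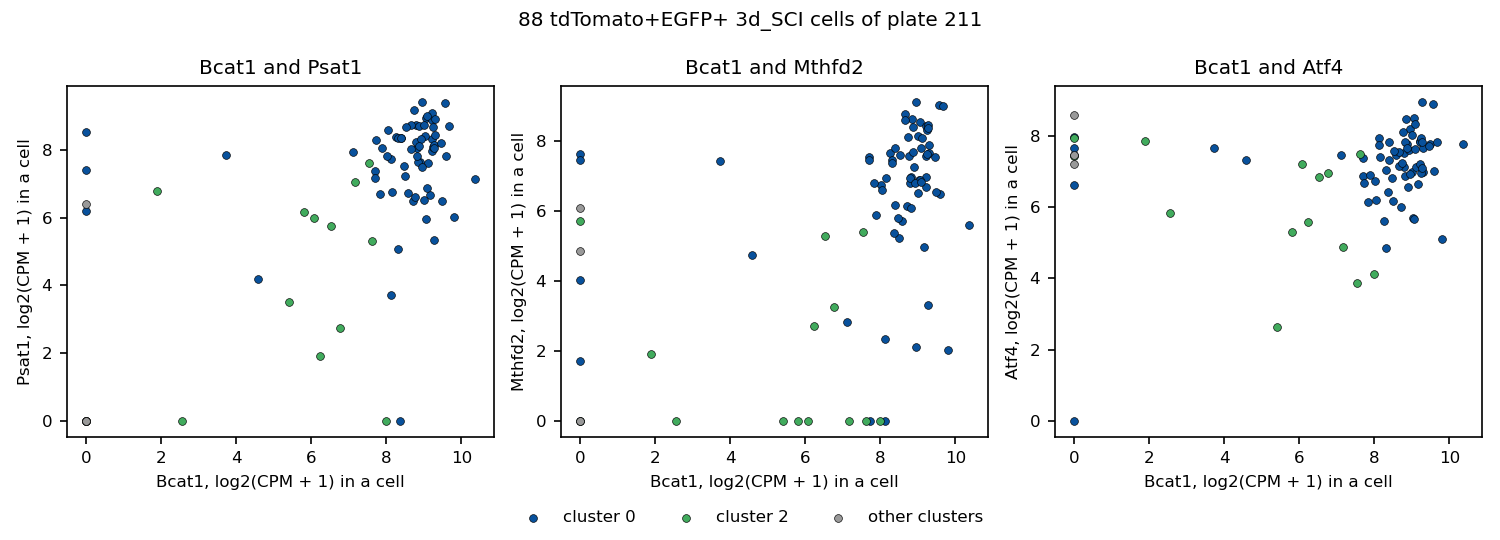
*Bcat1* (horizontal axes) against *Psat1*, *Mthfd2* and *Atf4* (vertical axes) as log2(CPM + 1) in each of the 88 tdTomato+EGFP+ 3d_SCI cells of plate 211, coloured by cluster. Cluster 0 cells crowd at the upper right for *Psat1* and *Mthfd2*, several cluster 2 cells have *Bcat1* without *Mthfd2*, and *Atf4* is present at all levels of *Bcat1*.

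The genes most like *Bcat1* over those 88 cells, among 10858, were *Eif4ebp1* (0.677), *Tars1* (0.663), *Srm* (0.660), *Fscn1* (0.655) and *Ppa1* (0.655). Over the 8 sums of plate and sort, Pearson's r of log2(CPM + 1) was among the highest for *Hmga1* (0.990), *Aldh1a2* (0.989), *Eif3l* (0.989) and *Ppa1* (0.988), among 5999 genes. The 8 sums form 2 separate sets by injury, so these coefficients only order the genes.

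*Bcat2*, the mitochondrial branched-chain aminotransferase, showed a smaller shift in its sums than *Bcat1*. Its level was 61.5 and 70.8 CPM in tdTomato+EGFP+ cells before and after injury and 60.03 and 80.1 CPM in tdTomato-EGFP+ cells, and its plates overlapped in both. The share of thinned cells with a *Bcat2* count nonetheless went from 25.2% to 65% and from 30.4% to 63.7%, and the summed difference in tdTomato+EGFP+ cells, 0.20, became 0.87 with TMM scaling and 1.00, past the limit, with DESeq2 scaling. Of 18 tested genes of branched-chain amino acid breakdown and uptake, 0 were called higher and 8 lower in tdTomato+EGFP+ cells (median -0.86 against -0.587 for all genes, of which 34.3% were called lower). *Ppm1k*, the phosphatase that activates the branched-chain ketoacid dehydrogenase, was at -2.02, the transporter *Slc43a2* at -2.40 and *Slc7a5*, which takes up leucine, at -1.73. With TMM scaling, where 20.8% of all genes were higher and 18.9% lower, 1 was higher and 6 lower. In tdTomato-EGFP+ cells, without that scaling, 0 were higher and 2 lower, *Slc7a5* (-1.78) and *Ppm1k* (-1.41), where 9.53% of all genes were called higher and 17% lower.

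The wider one-carbon and nucleotide genes are set against all genes, of which 10.8% were called higher and 34.3% lower (20.8% and 18.9% with TMM scaling). Of 16 folate cycle genes, 4 were called higher in tdTomato+EGFP+ cells, among them *Tyms* (thymidylate synthase, 3.05) and *Ahcy* (2.75), and 3 lower, among them the folate carrier *Slc19a1* (-2.97) and *Ggh* (-1.68). *Mthfd1l*, the next mitochondrial enzyme after MTHFD2, was higher by 1.71, and in tdTomato-EGFP+ cells by 2.38. Of 12 purine synthesis genes 3 were higher, including *Impdh2* (1.31) and *Atic* (1.28), and 1 lower. With TMM scaling these became 7 higher and 3 lower for the folate cycle and 10 higher and 0 lower for purine synthesis. Among 12 serine and glycine transport genes, *Slc38a4* (4.02) and *Gcsh* (1.07) were higher and 3 lower, led by the serine transporter *Slc1a4* (-2.38), and this list's median changed sign with TMM scaling, from -0.40 to 0.26.

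A list of ATF4 targets that left out the members, such as *Asns*, was mixed. Of 15 tested in tdTomato+EGFP+ cells, 3 were called higher, including the cystine transporter *Slc7a11* (2.29) and *Eif4ebp1* (2.12), and 5 lower, including *Atf3* (-3.58) and *Ddit4* (-2.59). Of all genes, 10.8% were called higher and 34.3% lower. Their median of -0.50 became 0.10 with TMM scaling, which called 3 higher and 3 lower. *Ddit3*, a stress-induced transcription factor, went from 74.9 to 23.8 CPM with plate pairs of both signs and was not called. *Slc7a11* differed from the serine genes within injured cells, being lower in cells with cycling transcripts (-1.80), and its rho with *Bcat1* was -0.092 over the 88 cells of plate 211. In tdTomato-EGFP+ cells 3 of 12 were higher, led by *Slc7a11* (4.84) and *Cars1* (1.88), and 3 lower, where 9.53% of all genes were called higher and 17% lower.

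Of 17 cytosolic aminoacyl-tRNA synthetases, 4 were called higher in tdTomato+EGFP+ cells, led by *Kars1* (1.40) and *Rars1* (1.38), and 0 lower, against 10.8% and 34.3% of all genes, and with TMM scaling 12 were higher against 20.8%. Of 12 proline and glutamate genes 4 were higher, including *Gpt2* (2.71) and *Pycr1* (1.59), and 1 lower, *Glud1* (-1.27). Among 10 regulators *Myc* was higher by 2.29 and *Eif2s1* by 1.69, while the kinases *Eif2ak3* (-1.46) and *Eif2ak4* (-1.17), which act upstream of ATF4 translation, were called lower; with TMM scaling neither was. *Myc* had 2.05 and 15.8 CPM on the uninjured and 51.5 and 76.3 CPM on the injured plates of that sort.

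Exons of *Psph*, *Shmt1* and *Shmt2* overlap those of *Cct6a*, *Smcr8* and *Ndufa4l2* on the other strand, and whether counting used strand is not given in the sources used here, so these 3 levels are uncertain. In tdTomato+EGFP+ cells *Cct6a* went from 214.6 to 625.4 CPM, whereas *Ndufa4l2* went from 343.1 to 28.2 CPM as *Shmt2* rose. The antisense gene at *Bcat1*, *Gm26666*, had at most 0.225 CPM.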

How the data were processed

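Single cells of the 4 groups were profiled with Smart-seq3. The authors deposited raw counts as whole numbers, with a row for each gene and a column for each cell, on the mm10 mouse build per the labels. The aligner, the annotation and whether reads or molecules were counted are not given in the sources used here. Of its 1968 cell columns, 503 match the labels and 1465 were not used. The 92 spike-in rows (0.0314% of counts) were left out of library sizes.

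Cells with 200 or more genes and under 20% mitochondrial counts were kept, and cells with more *Pecam1* than *Pdgfrb* removed (34), which left 468: tdTomato+EGFP+ uninjured 137 of 158, tdTomato+EGFP+ 3d_SCI 122 of 122, tdTomato-EGFP+ uninjured 106 of 118 and tdTomato-EGFP+ 3d_SCI 103 of 105. Of these, 127, 100, 92 and 102 had the 20000 counts that thinning needed. Counts were summed per group and per plate and compared as log2(CPM + 1). Clusters came from Seurat 5.3.0 in R 4.3.3 (20 principal components, resolution 0.5). TMM (edgeR 4.0.16) and DESeq2 1.42.0 gave alternative scaling factors only. Doublets were not called. The sort selected singlets, and *Pecam1* still had a count in 75.6% of thinned tdTomato+EGFP+ and 73.9% of thinned tdTomato-EGFP+ uninjured cells. Whether such wells held more than 1 cell was not tested. Scripts were tested on simulated data. The named genes were all 10 members, up to 2 genes per direction with the largest called difference in each pathway list, a short fixed list of related genes (*Bcat2*, *Tyms*, *Slc7a11* and others), and the 5 genes most like *Bcat1* by each of 2 measures, of which 1 gene is not reported here; genes overlapping a member's exons were named after their values were seen. The members and lists were chosen with earlier results of these data known.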

Additional observations from a re-analysis of the deposited data

How the results depend on the processing

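Over 912 alternative values, 799 kept a similar count or lay within the spread of plates or the counting interval. A called difference changed sign in 2, and the others moved. Both of these sign changes were *Aldh1l2* with CPM averaged over cells, -0.87 for injury in tdTomato+EGFP+ cells and 0.46 for the sort in uninjured cells. Sign changes of differences that were not called, such as that of *Atf4* with TMM scaling, were not counted as such. Members called higher for the sort at 3 days (5) numbered 8 with TMM and 8 with DESeq2 scaling, 3 with the mean of cell CPM, 3 with a pseudocount of 10 and 2 with the doubled limit of 2. For injury in tdTomato-EGFP+ cells the doubled limit left 3 of 6 called higher (410 of 11433 genes), and without plate 209 1 was called lower (2310 of 11484). For the sort in uninjured cells 1 was called higher, but 0 with the mean of cell CPM, the doubled limit, no endothelial filter, no cells with astrocyte markers or without plate 213, 2 without the cell with most counts and 3 without plate 209; the 1 called lower became 0 with the mean of cell CPM, a pseudocount of 10 or without that cell. For the difference between the injury differences (3 higher, 552 of 12080 genes), 1 was left without the cell with most counts (540 of 11415). Without plate 213, 5 were called higher (979 of 12101), and without plate 209, 2 were called lower (3287 of 12260). *Bcat1* rose by 5.23 and 2.56 in the 2 sorts with a pseudocount of 10, and in tdTomato-EGFP+ cells by 5.23 without the cell with most counts and 5.26 without plate 213. Its share of tdTomato+EGFP+ 3d_SCI cells was 77.6% when thinned to 10000 counts, its highest cluster in tdTomato-EGFP+ cells reached 536.9 CPM (9 cells) without regression, and its cycling differences at full depth were 1.64 and 2.95. The cause was not tested. No paired analysis was possible because no result came from a test; the sorts, which shared plates, were compared within each plate as values. A maximum of 1200 genes per cell, from the study's methods, was not run, since 33 cells pass it. The shallow plate 215 limits the tdTomato+EGFP+ injured values, and 1 sample a group leaves the spread between animals unknown.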
